A study of Mus musculus with 12 samples.

Results

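Acetylcholine is the transmitter with which motor neurons drive muscle, and 10 mouse genes that make it, move it or break it down are described here. They are Chat, Slc18a3, Slc5a7, Acly, Ache, Bche, Prima1, Slc44a1, Slc44a2 and Slc44a5. A row was taken where the annotation of the array gave 1 gene symbol and that symbol was 1 of the 10. This gave 10 of 24343 rows with 1 symbol in the gene-level table, 1 for each gene, and 203 of 1195555 probesets in the exon-level table.

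The arrays compared spinal motor neurons (SMNs) with posterior horn areas. The study used them to look for proteins that might take part in forming the neuromuscular junction. SMNs (anterior horn cells in the sample labels) were cut by laser from frozen anterior horn. Areas of the posterior horn (posterior column in the sample labels) were cut as the control. Both came from the cervical cord of untreated 6-week-old male C57BL/6J mice. The study took each kind of tissue from 3 mice and amplified the RNA linearly before hybridisation to Affymetrix exon arrays. Each group had 3 arrays, each summarised at both levels, and the labels do not say that each array is a separate mouse, so the p-values measure only the spread between these arrays, which may be technical.

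Both levels were centred alike in all 6 arrays: the median over all rows of the gene-level table ran from 33.1 to 33.8 in SMN arrays and from 32.9 to 35.2 in posterior horn arrays, and the median probeset from 4.49 to 4.51 in SMN arrays and from 4.50 to 4.52 in posterior horn arrays. The arrays named SMN were looked at for motor neuron markers. These were chosen with earlier results of these data known, so they are no independent check of the naming. Of 9 measured, 8 passed the test as higher in SMNs, where 13.8% of all rows did. The row used for Mnx1, a motor neuron transcription factor, was the other one. It was at 135, 172 and 177 in SMN arrays against 213, 237 and 237 in posterior horn arrays (adjusted p = 0.0709, limma). For a marker with several rows, the row with the highest mean was used. The study, by contrast, reported from its microarray that Mnx1 was more specific to SMNs than Rspo2, which encodes R-spondin 2. The cause of this difference was not tested. Markers of other cells were present in both groups. The summed level of 11 oligodendrocyte markers, all called lower in SMNs, lay between 17353 and 18557 in SMN arrays and between 32655 and 34202 in posterior horn arrays. That of 9 astrocyte markers lay between 9743 and 10667 in SMN arrays and between 22629 and 23744 in posterior horn arrays, with 8 called lower and S100b 2.58-fold higher in SMNs. That of 10 dorsal horn and inhibitory neuron markers lay between 5320 and 6016 in SMN arrays and between 23250 and 25164 in posterior horn arrays. Of these 10, 7 were called lower in SMNs, and most of the SMN sum came from Slc32a1 and Slc6a5, transporters of inhibitory neurons, which averaged 1997 and 2269 in SMN arrays against 2746 and 2518 in posterior horn arrays and did not pass. Their part in the values below was not tested. In such bulk samples, fewer cells of a type and less RNA per cell cannot be told apart.

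As background, a cholinergic neuron builds acetylcholine from choline and acetyl-CoA with choline acetyltransferase (Chat), loads it into synaptic vesicles with the vesicular acetylcholine transporter (Slc18a3), and after release takes the choline back up with the high-affinity choline transporter (Slc5a7). In the synapse the transmitter is split by acetylcholinesterase (Ache), which the membrane anchor Prima1 tethers to the membrane of neurons. In the RefSeq gene table Slc18a3 lies inside the span of Chat, an arrangement known as the cholinergic gene locus.

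The 250 bases before the annotated start of the 3 genes that define a cholinergic neuron are shown, since these genes had the largest differences of the 10. They are RefSeq sequences of build GRCm38.p6, all on the minus strand and printed 5′ to 3′. Capitals mark the E-box letters CANNTG, and the GC-box letters GGGCGG where they are read from the other strand (as CCGCCC).
Chat promoter, chr14:32465910-32466159: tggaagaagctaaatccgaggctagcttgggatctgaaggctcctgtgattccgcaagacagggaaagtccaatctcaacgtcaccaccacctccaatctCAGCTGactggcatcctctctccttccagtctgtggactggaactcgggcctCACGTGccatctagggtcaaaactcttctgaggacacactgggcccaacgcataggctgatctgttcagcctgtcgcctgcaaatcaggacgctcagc
Slc18a3 promoter, chr14:32464851-32465100: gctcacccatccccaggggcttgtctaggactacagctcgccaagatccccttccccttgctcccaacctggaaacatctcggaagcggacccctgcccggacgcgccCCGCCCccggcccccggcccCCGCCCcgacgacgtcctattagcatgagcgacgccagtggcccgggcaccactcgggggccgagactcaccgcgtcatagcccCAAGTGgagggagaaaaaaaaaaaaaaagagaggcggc
Slc5a7 promoter, chr17:54299035-54299284: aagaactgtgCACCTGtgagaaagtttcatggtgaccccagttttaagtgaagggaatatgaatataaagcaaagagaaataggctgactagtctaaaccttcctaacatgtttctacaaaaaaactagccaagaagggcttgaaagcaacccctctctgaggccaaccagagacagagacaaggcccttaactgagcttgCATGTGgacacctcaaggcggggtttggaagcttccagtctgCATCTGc
Both strands were searched for the E-box letters (CANNTG), for the homeodomain core letters (TAAT), for the GC-box letters (GGGCGG) and for the TATA-box letters (TATAAA), and no match overlapped another. CANNTG was found 2 times before Chat, 1 time before Slc18a3 and 3 times before Slc5a7, and 66.2% of 32851 mouse promoters of the same length hold it. GGGCGG was found 2 times before Slc18a3 alone of the 3, and 32.7% of promoters hold it. TAAT occurred 1 time, before Slc18a3, against a share of 54.9%, and TATAAA 1 time, before Slc5a7, against a share of 12.4%. The Slc18a3 window was the richest of the 3 in G and C, at 66.0% with 21 CpG, followed by Chat at 54.8% with 8 CpG and Slc5a7 at 45.6% with 1 CpG, where the median promoter had 52.4% and 6 CpG. A match is a description of the letters and not a bound site.

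At the gene level, 6 of the 10 genes were higher in SMNs, 1 was lower and 3 passed in neither direction. Over all 24343 rows, 26.4% were called, 13.8% as higher and 12.6% as lower (limma, two-sided, Benjamini-Hochberg adjusted p below 0.05), with a median log2 fold change of 0.02. All 3 SMN arrays lay above all 3 posterior horn arrays for the 6 higher genes, as for 24.1% of all rows. The deposited gene-level values are linear intensities, and every fold change at this level is on the scale of log2(intensity + 1), SMN minus posterior horn. Chat, Slc18a3 and Slc5a7 had the 3 largest fold changes of the 10 genes, and the order among these 3 turned when 16 was added before the log2 in place of 1.

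**Figure D1:**
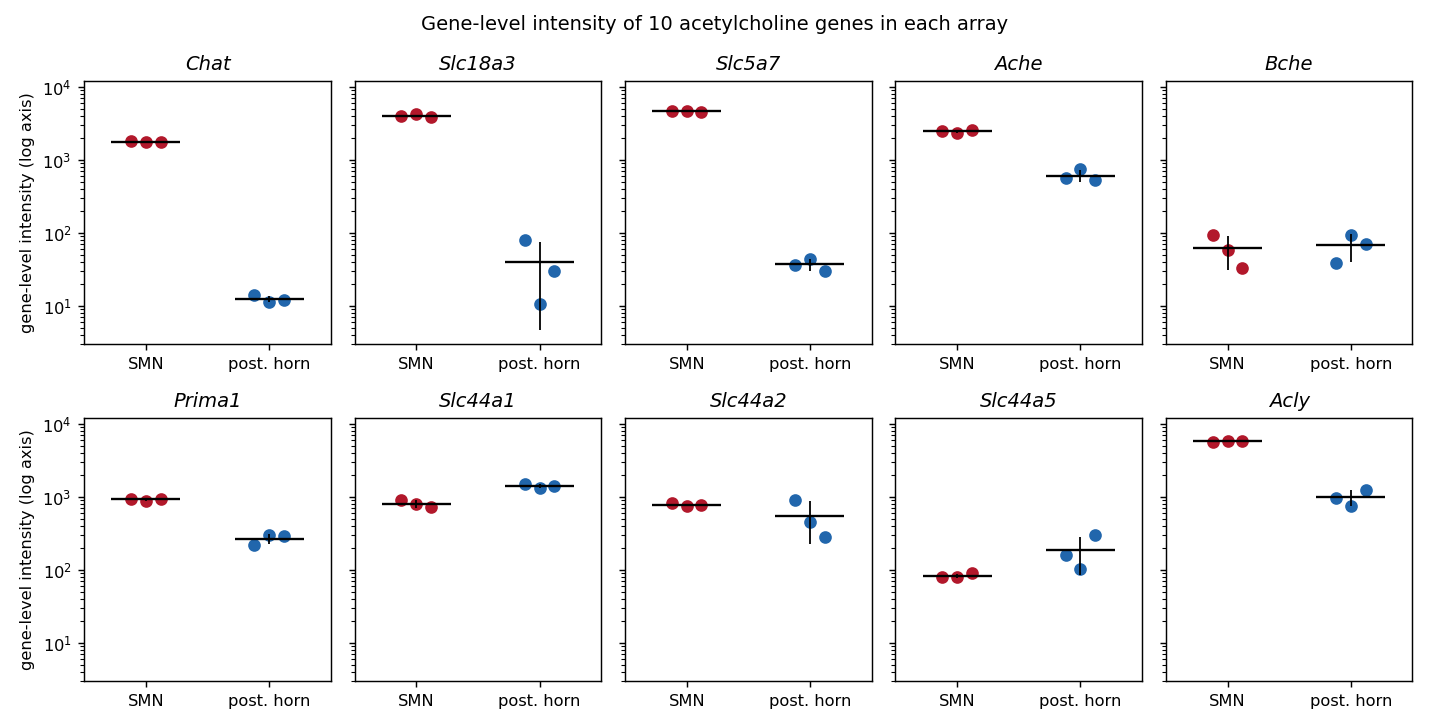
Gene-level intensity (log axis) of the 10 genes in each SMN array (red, left) and each posterior horn array (blue, right), with the mean and 1 SD in black (n = 3 arrays each). Chat sat between 1749 and 1842 in SMN arrays and between 11.4 and 14.0 in posterior horn arrays, while Bche overlapped between the groups.

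Chat, the enzyme that makes acetylcholine, had an intensity of 1842, 1760 and 1749 in the 3 SMN arrays against 14.0, 11.4 and 12.2 in the 3 posterior horn arrays. The groups were far apart and each was tight. The log2 fold change was 7.05 ± 0.15 (SE), or 132-fold, with a 95% interval of 103 to 169 and an adjusted p of 3.9e-05 in limma. The tables hold no detection call, and with 16 added before the log2 in place of 1 the fold was 63.1, so that the size of the ratio rests on how the dim posterior horn values are handled.

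Slc18a3, which fills synaptic vesicles with acetylcholine, was at 3933, 4189 and 3905 in SMN arrays against 79.2, 10.6 and 30.3 in posterior horn arrays. The SMN arrays lay close together, while posterior horn array 1 was the highest and array 2 the lowest of a wide spread. The difference was 7.03 ± 0.66 on the log2 scale (130.3-fold, 95% interval 43.0 to 395, adjusted p = 0.00184, limma), with a standard error above that of Chat. Without posterior horn array 1 the fold was 210, without posterior horn array 2 it was 80.0, and with 16 added it was 82.2.

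Slc5a7, which carries choline back into the nerve terminal, was at 4659, 4713 and 4484 in SMN arrays against 36.5, 44.7 and 30.1 in posterior horn arrays. Neither group held an array that stood apart. The difference was 6.94 ± 0.18 on the log2 scale (123-fold, 95% interval 90.0 to 168, adjusted p = 8.7e-05, limma).

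The 3 fold changes were set against each other per array. The fold of Slc18a3 over that of Chat was -0.02 on the log2 scale, that of Slc5a7 over Chat was -0.11, and that of Slc18a3 over Slc5a7 was 0.09. Each had an exact two-sided permutation p of 1, and of 1 after Benjamini-Hochberg adjustment over the 3 pairs, where 3 arrays against 3 cannot give less than 0.1. The log2 level of Slc5a7 minus that of Chat ran from 1.34 to 1.42 in SMN arrays and from 1.24 to 1.88 in posterior horn arrays, and that of Slc18a3 minus Chat from 1.09 to 1.25 in SMN arrays and from -0.10 to 2.42 in posterior horn arrays. The groups overlapped in both, and the test does not show that the 3 folds are equal. The outcome also depended on the measure. With the median of each gene's probesets taken as its level, the exact p was 0.1 for each pair.

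Acly, the ATP-citrate lyase that makes acetyl-CoA in the cytosol and serves lipid synthesis as well, was at 5671, 5680 and 5768 in SMN arrays against 947, 753 and 1234 in posterior horn arrays. All SMN arrays lay above all posterior horn arrays. The log2 fold change was 2.57 ± 0.21 (5.95-fold, 95% interval 4.17 to 8.48), with an adjusted p of 0.00124 in limma.

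Ache, which ends the signal by splitting acetylcholine, was at 2473, 2368 and 2589 in SMN arrays against 558, 743 and 532 in posterior horn arrays. The groups did not overlap, and posterior horn array 2 was the highest of its group. The rise was 2.03 ± 0.18 on the log2 scale (4.09-fold, 95% interval 3.02 to 5.54, adjusted p = 0.00154, limma). Prima1, the small membrane protein that anchors acetylcholinesterase, was at 932, 879 and 937 in SMN arrays against 215, 295 and 289 in posterior horn arrays. It was higher by 1.79 ± 0.18 (3.46-fold, 95% interval 2.57 to 4.67, adjusted p = 0.00219, limma), so the enzyme and its anchor were both higher in SMNs.

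Bche, the related butyrylcholinesterase, which also splits acetylcholine and in the nervous system is known mainly from glia, was at 93.3, 58.4 and 33.2 in SMN arrays against 38.8, 94.7 and 70.4 in posterior horn arrays. The groups overlapped fully, with the lowest single value in an SMN array and the highest in a posterior horn array. The log2 difference was -0.17 ± 0.47 with a 95% interval of -1.31 to 0.97 (adjusted p = 0.821, limma). The sign turned without SMN array 3 (0.21) and without posterior horn array 2 (0.11).

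Of the 3 choline transporter-like genes, 1 was lower in SMNs and 2 passed in neither direction. Slc44a1, a widely expressed choline transporter that feeds membrane phospholipid synthesis, was at 897, 786 and 714 in SMN arrays against 1487, 1305 and 1405 in posterior horn arrays. All SMN arrays lay below all posterior horn arrays, and the log2 fold change was -0.81 ± 0.16, a level 1.76-fold lower in SMNs (adjusted p = 0.0148, limma). It no longer passed without SMN array 2 (adjusted p = 0.0595), without SMN array 3 (0.0588), with all 238609 rows tested (0.157) or on the median of its probesets (0.0847).

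Slc44a2, a family member found in many tissues, was at 804, 748 and 772 in SMN arrays against 893, 455 and 281 in posterior horn arrays. The posterior horn arrays spread widely, with array 1 above every SMN array. The log2 difference of 0.67 ± 0.41 did not pass (adjusted p = 0.271, limma), and without posterior horn array 1 it was 1.11 and did (adjusted p = 0.0347).

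Slc44a5, another member of the family, was at 79.6, 79.6 and 89.2 in SMN arrays against 156, 103 and 295 in posterior horn arrays. All SMN arrays lay below all posterior horn arrays, a separation that 21.4% of rows showed. The log2 difference was -1.01 ± 0.38 (adjusted p = 0.0977, limma) and did not pass, while without posterior horn array 2 it was -1.37 (adjusted p = 0.0390).

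**Figure D2:**
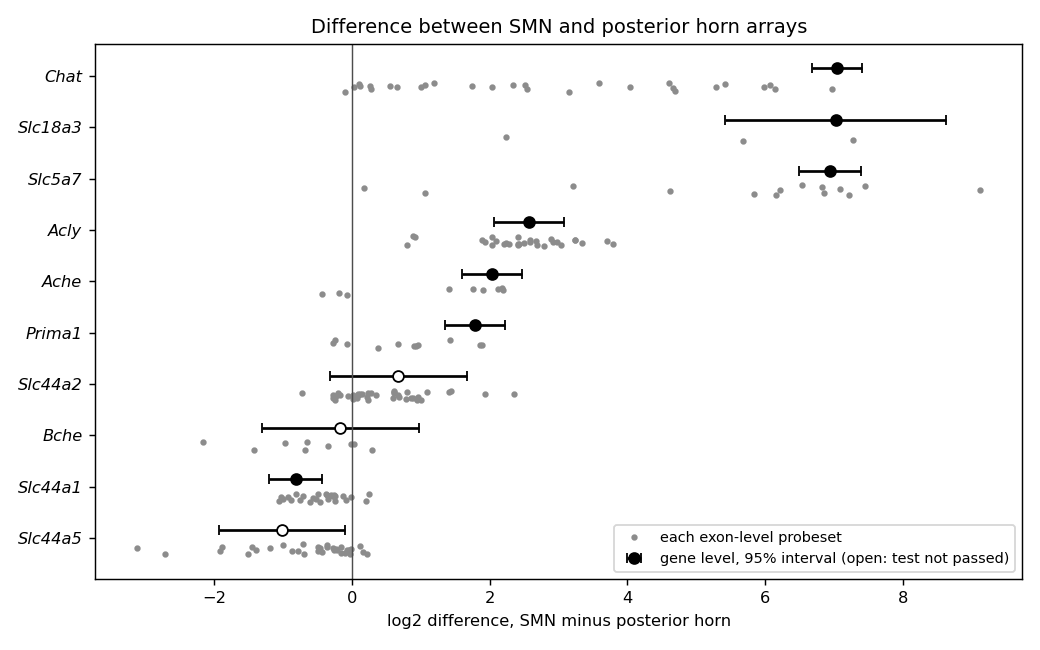
Log2 difference, SMN minus posterior horn, of the 10 genes, with the gene-level estimate and its 95% interval in black (filled where the adjusted p was below 0.05, n = 3 arrays each) and each exon-level probeset as a grey point. The gene-level point of Chat, at 7.05, lies to the right of all 28 of its probesets, while the 30 probesets of Acly lie on both sides of 2.57.

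At the exon level, each probeset reads a short piece of a gene and its deposited value is already a log2 value. Of the 203 probesets of the 10 genes, 63 were higher in SMNs, 1 was lower and 139 passed in neither direction, where 0.57% of all probesets were called higher, 0.654% lower and 1.22% either way (limma, Benjamini-Hochberg over all probesets). Among all probesets that carried 1 symbol, 1.44% were called higher and 1.48% lower when all probesets were tested together. The groups did not overlap, with SMN arrays above, at 10.8% of all probesets and at 17.2% of those with 1 symbol, and with SMN arrays below at 8.7% and 12.3% of the same sets. Chat, Slc18a3 and Slc5a7 held 32 of the 63 on 45 probesets, and the other 7 genes held 31 higher and 1 lower on 158. These counts fell when any 1 array was left out. Leaving out SMN array 1, 2 or 3 left 35, 33 or 34 calls in place of 64. Over all probesets, the same fits left 2416, 2529 or 2464 calls in place of 14626. Leaving out posterior horn array 1, 2 or 3 left 52, 57 or 57, and over all probesets 5903, 5148 or 6249. The cause of this was not tested.

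Of the 28 probesets of Chat, 17 were higher in SMNs and 11 did not pass, and 27 of the 28 differences were positive. The probeset with the largest difference (4328002) was at 8.92, 8.68 and 9.11 in SMN arrays against 2.21, 1.80 and 1.79 in posterior horn arrays, a log2 difference of 6.97. The brightest in SMN arrays (5400195) was at 11.07, 11.09 and 10.91 there against 5.36, 5.19 and 4.31 in posterior horn arrays, a difference of 6.08. Both showed a wide gap with no overlap. Differences of 6.14, 5.98, 5.41, 5.29, 4.70, 4.67, 4.61 and 4.04 brought the number of probesets above 4 to 10. A further 7 passed at 3.59, 3.16, 2.54, 2.52, 2.35, 2.03 and 1.75, and 6 of these 7 had a posterior horn mean between 5.88 and 6.67, while that of the other, with the difference of 1.75, was 5.06.

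The 11 Chat probesets that did not pass had differences of 1.19, 1.07, 1.01, 0.65, 0.55, 0.28, 0.27, 0.12, 0.11, 0.03 and -0.10. Their median level was 5.23 in SMN arrays and 5.10 in posterior horn arrays, and 7 of the 11 overlapped between the groups. One of them (5514756) was bright in both, at 9.07, 8.66 and 8.70 in SMN arrays against 8.03, 7.62 and 7.75 in posterior horn arrays, with no overlap (difference 1.01, adjusted p = 0.106, limma). Another (5216545) was dim in both, at 3.07, 2.36 and 1.86 in SMN arrays against 1.82, 1.72 and 1.80 in posterior horn arrays. The probesets of Chat thus ranged from a gap of 6.97 to no gap, and their median difference was 2.43.

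Slc18a3 had 3 probesets, and all 3 were higher in SMNs. The first (5561838) was at 13.06, 13.12 and 13.12 in SMN arrays against 7.34, 4.50 and 5.64 in posterior horn arrays, a difference of 7.27 with the same posterior horn array 1 on top as at the gene level. The second (4401248) was at 9.66, 9.79 and 9.50 in SMN arrays against 4.25, 3.84 and 3.82 in posterior horn arrays, a difference of 5.68. The third (5465985) was at 6.71, 6.42 and 6.22 in SMN arrays against 3.83, 4.64 and 4.16 in posterior horn arrays, a difference of 2.24. The wide posterior horn spread of the gene was seen in the first of the 3 and not in the other 2.

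Of the 14 probesets of Slc5a7, 12 were higher in SMNs and 2 did not pass, and all 14 differences were positive. The largest difference of any of the 203 probesets was here (4527683), at 11.67, 11.72 and 11.81 in SMN arrays against 2.91, 2.07 and 2.83 in posterior horn arrays, a log2 difference of 9.13 (adjusted p = 0.000653, limma). A further 10 probesets differed by 7.46, 7.22, 7.08, 6.85, 6.82, 6.53, 6.21, 6.16, 5.84 and 4.62. The last to pass (5170472) differed by 3.21, at 9.61, 9.47 and 9.71 in SMN arrays against 5.83, 6.33 and 6.98 in posterior horn arrays. The 2 that did not pass were at 3.09, 4.40 and 4.39 in SMN arrays against 2.84, 3.08 and 2.77 in posterior horn arrays (4441419), and at 6.84, 6.70 and 7.05 in SMN arrays against 6.77, 6.46 and 6.85 in posterior horn arrays (4337596). The median difference over the gene was 6.37.

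**Figure D3:**
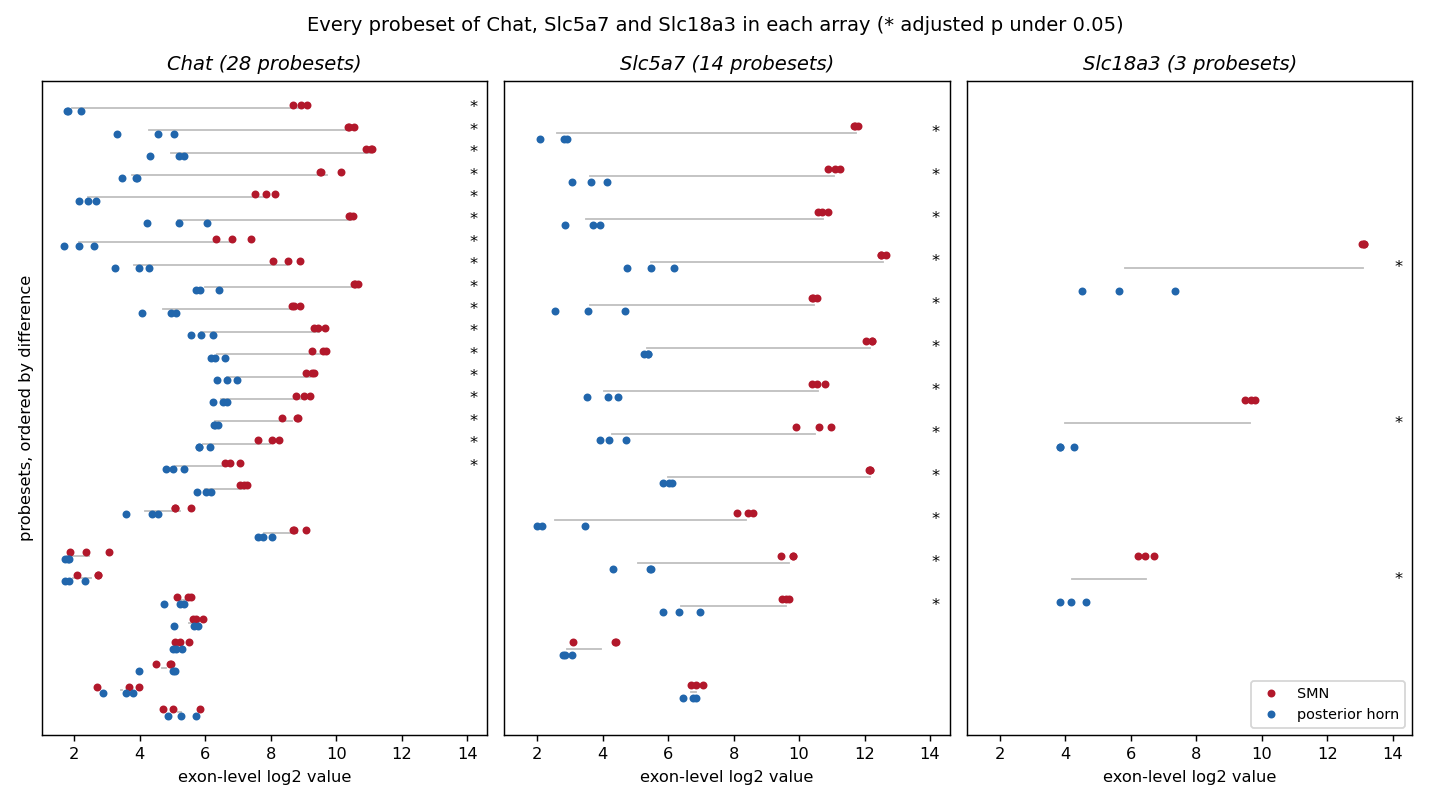
Exon-level log2 value of every probeset of Chat, Slc5a7 and Slc18a3 in each SMN array (red) and posterior horn array (blue), 1 line per probeset with grey lines joining the group means, ordered by difference and not by place in the gene. The gap closes from 6.97 at the top to -0.10 at the bottom of Chat, while 12 of the 14 lines of Slc5a7 keep a gap of 3.21 or more.

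Of the other genes, Acly passed at most of its probesets and the rest at few or none. Acly was higher at 26 of 30 probesets, with all 30 differences positive (0.80 to 3.80, median 2.46). Ache was higher at 4 of 9, with differences of 2.19, 2.18, 2.12 and 1.90 at those 4 and between -0.43 and 1.76 at the other 5. Prima1 was higher at 1 of 11, where the probeset was at 10.30, 10.46 and 10.48 in SMN arrays against 8.16, 8.91 and 8.48 in posterior horn arrays, and its differences ran from -0.27 to 1.90. Without SMN array 1, 2 or 3 the number that passed was 7, 7 or 9 for Acly and 0 in each case for Ache and Prima1. It was 22, 20 or 25 for Acly, 1, 3 or 2 for Ache and 0, 1 or 0 for Prima1 without posterior horn array 1, 2 or 3. Over all probesets, calls fell in these fits too, from 14626 to between 2416 and 6249.

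None of 9 Bche, 27 Slc44a1 and 39 Slc44a2 probesets passed in limma, where 2, 8 and 7 of them had an unadjusted p below 0.05. For Slc44a1, 25 of 27 differences were negative (median -0.37, range -1.06 to 0.26), and all SMN arrays lay below all posterior horn arrays at 13 of them and above at 0, where 12.3% of all probesets with 1 symbol were separated that way. For Slc44a2, 31 of 39 were positive (median 0.28), and for Bche 7 of 9 were negative (median -0.64). All SMN arrays lay below all posterior horn arrays at 2 of the 9 Bche probesets and above at 0, beside the same 12.3%. The brightest Bche probeset (4821821) was 1 of these 2. It was at 8.80, 8.85 and 8.80 in SMN arrays against 10.58, 9.75 and 10.37 in posterior horn arrays (difference -1.42, adjusted p = 0.0634, limma). Slc44a5 fell at 1 of 33 probesets, at 4.31, 3.20 and 3.69 in SMN arrays against 6.56, 5.59 and 7.16 in posterior horn arrays (difference -2.71, adjusted p = 0.0492, limma), and 30 of its 33 differences were negative. That call was lost without any single array other than posterior horn array 2. With the methods' t-test, adjusted, 39 of the 203 probesets passed in place of 64.

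Whether the probesets of 1 gene differed among themselves was tested with limma's diffSplice, which 21.4% of 21412 genes passed. It passed for 7 of the 10 genes: Chat (adjusted p = 2.2e-50), Slc5a7 (1.4e-24), Acly (2.7e-09), Slc18a3 (3.7e-05), Prima1 (0.000281), Ache (0.000424) and Slc44a5 (0.0351). Bche (0.0822), Slc44a1 (0.360) and Slc44a2 (0.593) did not pass. For Slc44a5 the adjusted p was 0.142 to 0.477 without any 1 array other than posterior horn array 2 and 4.2e-05 without that one, and for Slc44a2 it was 0.00111 without posterior horn array 2. The test assumes 1 spread for all probesets of a gene, and isoforms and probesets that respond weakly cannot be told apart by it.

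Setting the gene level beside the exon level, the fold change of Chat, 7.05, lay above every one of its 28 probeset differences. The median probeset value of each gene was also taken as its level in each array. On that measure Chat was higher by 3.12 (8.72-fold), Slc18a3 by 5.35 (40.7-fold), Slc5a7 by 6.30 (78.7-fold), Acly by 2.87, Ache by 1.37 (2.58-fold) and Prima1 by 0.92 (1.90-fold). All 6 still passed, and the order of the first 3 was turned round.

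**Figure D4:**
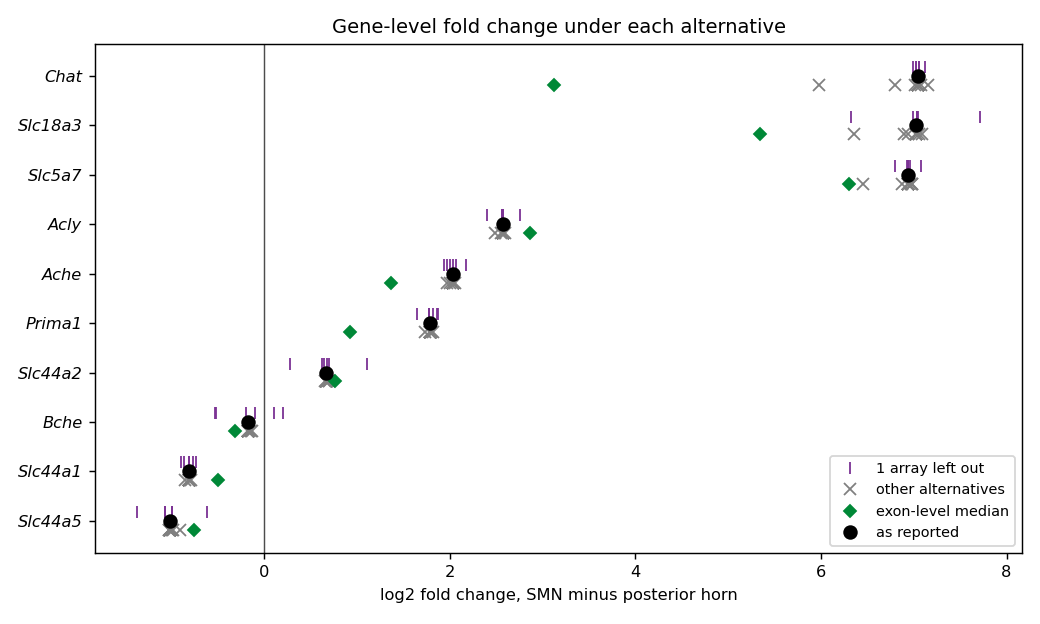
Gene-level log2 fold change, SMN minus posterior horn, of each gene as reported (black), with each of the 6 arrays left out (purple), under other settings (grey) and from the median of its probesets (green). Chat falls to 3.12 with the probeset median, Slc18a3 runs from 6.32 to 7.72 as arrays are left out, and Bche lies on both sides of 0.

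The genes whose values over the 6 gene-level arrays ran closest to those of Chat were found by the root mean square distance between row-centred log2 values. Each symbol was taken at its row with the highest mean. Slc5a7 was the nearest of all symbols, at 0.21, and Slc18a3 stood at place 9, counting Chat itself as the first, at 0.73. Outside the 10 genes, the 5 nearest symbols were Calcb (0.26), a calcitonin gene-related peptide, Uts2b (0.45), a urotensin peptide, Prph (0.46), the intermediate filament peripherin, Uts2 (0.51), urotensin 2, and Vipr2 (0.66), a receptor for vasoactive intestinal peptide. Calcb was at 2793, 2705 and 2520 in SMN arrays against 28.4, 22.5 and 14.1 in posterior horn arrays. Over 6 arrays of 2 groups, this measure compares mainly the size of the gap between the groups.

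Around this core, other genes of choline and acetyl-CoA metabolism were counted, as were those of enzyme anchoring, of protein folding and of other transmitters. Of 13 measured genes of choline and phosphatidylcholine metabolism, 3 were higher and 1 was lower in SMNs, with a median log2 fold change of 0.13. This was near the share of all rows, of which 13.8% were called higher and 12.6% lower. Pcyt1b, which makes CDP-choline for membrane synthesis, was at 3405, 2913 and 2710 in SMN arrays against 991, 1086 and 1007 in posterior horn arrays (2.91-fold, adjusted p = 0.00231, limma). Pemt, which makes phosphatidylcholine by methylation, was 1.93-fold higher (adjusted p = 0.0392) and passed only without posterior horn array 1 among the fits that left out 1 array, while Chpt1, a choline phosphotransferase of the last step, was 1.89-fold lower (0.00711).

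Of 9 measured genes of acetyl-CoA supply, 6 were higher and 1 was lower, with a median of 0.92, beside the 13.8% of all rows called higher and 12.6% called lower. Slc25a1, the carrier that brings citrate out of mitochondria to Acly, was at 3993, 3679 and 3909 in SMN arrays against 666, 586 and 698 in posterior horn arrays. Its 5.95-fold difference (adjusted p = 0.000477, limma) stood beside the 5.95-fold of Acly. Pdhb, a subunit of pyruvate dehydrogenase, was 2.13-fold higher (0.00757), and Acss1, the mitochondrial acetyl-CoA synthetase, was 3.68-fold lower (0.00412). Without SMN array 1 or SMN array 3, 4 of the 9 passed in place of 7, while over all 24343 rows 3284 passed without SMN array 1 and 3447 without SMN array 3 in place of 6420.

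Of 5 measured genes of enzyme anchoring or of protein folding, 2 were higher, where 13.8% of all rows were called higher. These were Ric3, a chaperone of acetylcholine receptors, by 2.05-fold (adjusted p = 0.0216, limma), and P4hb, protein disulfide isomerase, by 1.78-fold (0.00902). The median was 0.45, and 1 of the 2 was left without SMN array 1, without SMN array 2, without posterior horn array 1 or without posterior horn array 3. Of 9 other transmitter transporters, 1 was higher and 1 lower, with a median of -0.36, a share no higher than the 26.4% of all rows called in either direction. Slc18a1, a vesicular monoamine transporter and relative of Slc18a3, was at 142, 91.9 and 110 in SMN arrays against 13.6, 12.5 and 10.5 in posterior horn arrays (8.67-fold, adjusted p = 0.000796, limma). As for Chat, the size rests on dim posterior horn values: the log2 fold change was 3.12 as reported and 2.20 with 16 added. Slc17a6, the vesicular glutamate transporter of excitatory neurons, was 3.00-fold lower, at 1492, 1154 and 1281 in SMN arrays against 4056, 4128 and 3553 in posterior horn arrays (adjusted p = 0.00251).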

How the data were processed

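RNA of laser-dissected SMNs and posterior horn areas was hybridised to Affymetrix exon arrays, with 3 arrays per group, each given at 2 levels. The deposited gene-level table holds linear intensities and the deposited exon-level table holds log2 values; per the submitters' processing notes both came from Affymetrix Expression Console 1.3.1.187. How probes were corrected and summarised, and the genome build, is not given in the sources used here. Array medians were alike, and no further normalization was applied.

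Rows were named from platform annotation tables: 24343 of 238609 gene-level rows had 1 symbol, 1797 had several and 212469 were unnamed here. Probesets carry no positions, so their order along a gene is unknown. Differences were tested in R 4.3.3 with limma 3.58.1 (lmFit, eBayes, two-sided, Benjamini-Hochberg, threshold 0.05) on log2(intensity + 1) of the rows with 1 symbol and on the log2 values of all 1195555 probesets. Probesets within a gene were compared with diffSplice over probesets with 1 symbol. The fits were also run on simulated data, and no statement here rests on the outcome. The number of arrays limits the precision.

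The 10 genes and the lists were chosen with earlier results of these data known. The text names all 10 genes, of each list the 2 largest rises and falls that passed, and the 5 symbols most like Chat; single probesets of other genes were named after their values were seen. Alternatives were the constant added, a floor, centring, quantile normalization, filters on dim rows, other sets of rows, the methods' t-test, the replicate block, leaving out each array and the median of a gene's probesets. Promoters came from a RefSeq table of GRCm38.p6. Protein sequences were not used here.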

Additional observations from a re-analysis of the deposited data

How the results depend on the processing

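Of the 10 genes, 7 passed at the gene level as reported. Chat, Slc18a3, Slc5a7, Acly, Ache and Prima1 passed with the same direction under all 20 alternatives, with log2 fold changes of 3.12 to 7.16, 5.35 to 7.72, 6.30 to 7.08, 2.40 to 2.87, 1.37 to 2.18 and 0.92 to 1.87. Slc44a1 passed under 16 of 20, Slc44a2 and Slc44a5 under 1 each and Bche under 0 of 19, with values of -0.52 to 0.21 as arrays were left out. The differences between the folds of the core genes turned sign with 16 added, with values under 16 set to 16 and with the probeset median: 0.38, 0.092 and 2.22 for Slc18a3 over Chat, 0.48, 0.18 and 3.17 for Slc5a7 over Chat, and -0.10, -0.087 and -0.95 for Slc18a3 over Slc5a7. The exact permutation p of these differences was 0.1, the smallest possible, for all 3 pairs with the probeset median. It was also 0.1 for Slc5a7 over Chat with 16 added, and 0.4 or more in every other case. With 16 added, 4 of the other transmitter transporters passed in place of 2. Leaving out 1 array gave 4 to 7 acetyl-CoA genes and 1 to 2 anchoring and folding genes. The cause of these changes was not tested.

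Of the 203 probesets, 64 passed as reported, 39 with the methods' t-test and 33 to 57 with 1 array left out; of the 3 Slc18a3 probesets 1 passed with the methods' t-test. Over all rows, 6420 passed as reported, 3284 to 5485 with 1 array left out, 3748 with the probeset median and 2008 of 238609 with all rows tested. Over all probesets, 14626 passed as reported, 2416 to 6249 with 1 array left out, 7029 with the methods' t-test, 28660 without the dimmest 50%, 22059 of those with 1 symbol and 47830 with an intensity trend and robust estimation.

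The labels do not say whether same-numbered arrays of the 2 groups belong together. Deviations of same-numbered arrays correlated at 0.03, -0.01 and 0.02 over gene-level rows. Taken over all rows from means of 3 arrays, these values cannot decide whether the arrays are paired. With the replicate number as a block, 3798 rows and 849 probesets passed, among them 21 of the 203 probesets, 8 of Chat and 1 of Slc18a3, while the 7 gene-level calls were made there too.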
